A study of Mus musculus with 6 samples.

Results

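The 9 genes described here encode enzymes that build, recycle and degrade pyrimidines. Their transcripts were read on 1 Affymetrix array per animal in livers of 3 mutants of genotype B6.Alb/cre,Pdss2loxP/loxP and 3 controls of genotype B6.Pdss2loxP/loxP. Cre made from the albumin promoter removes the loxP-flanked part of Pdss2 in hepatocytes, so the other cells of a mutant liver keep the gene, and the controls carry the same loxP alleles without cre. All were males, caged apart by genotype, at an age in days of 176, 178 and 224 for mutants 1 to 3 and of 209, 213 and 140 for controls 1 to 3. Members were all probe sets, the groups of short DNA probes that each report 1 transcript region, annotated to exactly 1 of the symbols Cad, Umps, Dpyd, Dpys, Upb1, Agxt2, Upp1, Upp2 and Cda. The 9 genes, of 18194 with such a probe set, had 20 of the 45101 probe sets in the table, of which 7 belong to synthesis, 8 to breakdown and 5 to salvage.

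Pyrimidines are made in the cytosol from glutamine, bicarbonate and aspartate by the multifunctional enzyme Cad. The dihydroorotate that it forms is oxidized by Dhodh, an enzyme of the inner mitochondrial membrane that hands its electrons to coenzyme Q (CoQ), and Umps turns the orotate into UMP. Liver is the main site of the reverse route, in which Dpyd reduces uracil and thymine, Dpys opens the ring and Upb1 releases beta-alanine or beta-aminoisobutyrate, the second of which is a substrate of the mitochondrial aminotransferase Agxt2. Uridine phosphorylases (Upp1 and Upp2) free uracil from uridine, and cytidine deaminase (Cda) converts cytidine to uridine.

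Values are log2 intensities, differences are mutant minus control on that scale, and a change is called where the Benjamini-Hochberg adjusted p of limma over 45037 tested probe sets was under 0.05. The median difference of all of these was 0.17, and every mutant had a higher array median than every control (6.12 to 6.24 in mutants and 5.92 to 6.12 in controls). Of the 3 probe sets of Pdss2, the brightest read 6.88 to 7.05 in mutants and 7.46 to 7.56 in controls, and the groups overlapped on the others, which differed by 0.40 and 0.35. Their place relative to the deleted exon was not checked, so they do not test the labels, which the directions below follow. Control probe sets separated the groups as well. The 3′ minus 5′ signal of Gapdh was 0.45, -1.06 and -1.78 in mutants 1 to 3 and 2.02 to 2.31 in controls, while the spiked-in BioB, BioC and BioD averaged 11.06 to 11.66 on mutant arrays and 9.49 to 9.93 on control arrays. Hepatocyte markers (9 measured genes, none called) had a median difference of -0.25, with summed levels of 16.08 to 16.44 in mutants and 16.42 to 16.46 in controls on the log2 scale. Summed markers of endothelium (12.32 to 13.09 in mutants and 11.28 to 12.03 in controls, 2 of 10 called, both higher), Kupffer cells (11.39 to 12.12 and 10.33 to 11.34, 0 of 10 called) and bile duct (9.56 to 9.88 and 9.24 to 9.35, 0 of 6 called) stood wholly above the controls, those of stellate, lymphoid and erythroid cells overlapped, and no marker was listed at 0. The brightest bile duct marker, Onecut1 (means of 8.78 in mutants and 8.46 in controls), weighs most in that sum. Krt19, Krt7 and Cftr also lay above the controls on their brightest probe sets, while Epcam and Sox9 overlapped. In bulk liver, fewer cells of a type and less RNA per cell cannot be told apart.

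Only Dpys passed the test among the 9 genes, and it did so in both directions. Of the 20 probe sets, 2 (10.0%) were called, against 1.99% of all those tested. They were 1 that rose and 1 that fell, beside 1.25% and 0.746% over all (561 higher and 336 lower, or 150 each way when every array was centred on its median). At an unadjusted p under 0.05 there were 7 of the 20, a share of 35.0% beside 25.2% over all. The groups did not overlap on 7, also 35.0%, beside 31.9% over all, with mutants above on 4 (21.2% over all) and below on 3 (10.7% over all), so the members' share of separated groups was near the background. The median difference was 0.23 for synthesis, -0.07 for breakdown and -0.11 for salvage, against 0.17 for all probe sets. Counted by probe set, synthesis thus lay near the array-wide median, and breakdown (-2.89 to 1.55) and salvage below it. With 1 probe set per gene each part lay below the median of all, at -0.005, -0.19 and -0.04 against 0.17.

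**Figure D1:**
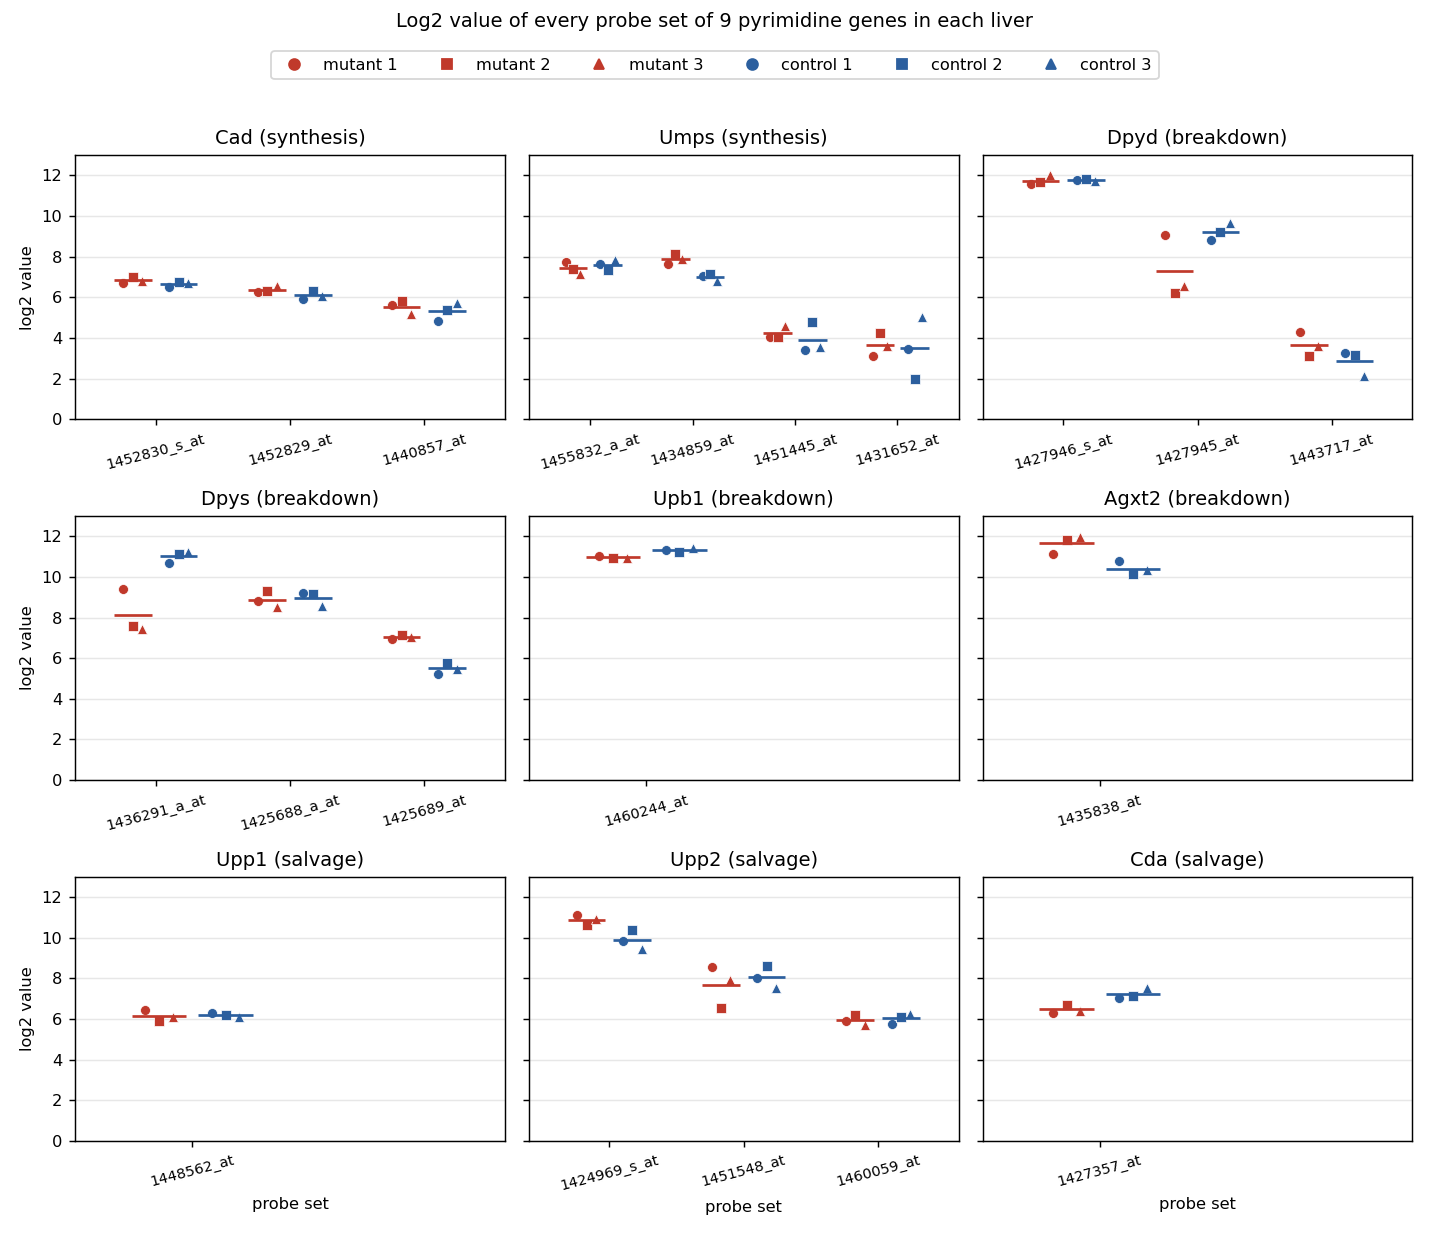
Log2 value (vertical axis) of each probe set (horizontal axis) of the 9 genes, red for mutants and blue for controls, 1 point per mouse, with group means drawn as lines. On Dpys 1436291_a_at the mutants sit at 7.44 to 9.39, all below the controls at 10.70 to 11.21, and on Dpys 1425689_at at 6.96 to 7.12, all above the controls at 5.24 to 5.76.

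Cad, which carries out the opening reactions of the pathway, did not pass the test on any of its 3 probe sets. The brightest, 1452830_s_at, read 6.69, 7.0 and 6.80 in mutants and 6.50, 6.76 and 6.69 in controls. Its difference of 0.18 (standard error 0.19, n = 3 per group, limma adjusted p = 0.61) lay close to the median of all probe sets. The other probe sets of Cad differed by 0.26 and 0.23, and mutants and controls overlapped on all 3. The 95% interval of the brightest ran between -0.27 and 0.63.

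Umps, which completes the making of UMP, gave different values on its 4 probe sets. On 1434859_at the mutants read 7.66, 8.12 and 7.91 and the controls 7.03, 7.13 and 6.83. Each mutant stood above each control, at 187% of the control level, and the difference of 0.90 (standard error 0.21, n = 3 per group) had an adjusted p of 0.0628 from limma. It passed without mutant 1 (1.02, limma adjusted p = 0.0388) and when the test was limited to probe sets with a mean of at least 6 (limma adjusted p = 0.0353). It did not pass without any of the other 5 mice (limma adjusted p = 0.117 to 0.202), with centring (limma adjusted p = 0.0981) or under the remaining alternatives that tested it. The fits with 1 probe set or the mean per gene did not test this probe set on its own. On 1455832_a_at, of similar brightness, the groups overlapped at 7.12 to 7.75 in mutants and 7.35 to 7.83 in controls, with a difference of -0.19 (limma adjusted p = 0.666). The remaining probe sets of Umps lay below the lower quartile of all 6 arrays and differed by 0.31 and 0.17.

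Among the 20 probe sets, the largest difference of each sign belonged to breakdown. Dpyd sets the pace of the pathway. Its brightest probe set, 1427946_s_at, overlapped between the groups, at 11.57, 11.65 and 12.01 in mutants and 11.78, 11.81 and 11.74 in controls (difference -0.03, 95% interval -0.50 to 0.43, limma adjusted p = 0.942). On 1427945_at, annotated to the same cDNA, mutants 2 and 3 read 6.24 and 6.54 and mutant 1 read 9.07, against 8.81, 9.21 and 9.65 in controls. Mutant 1 thus fell among the controls, and the difference of -1.94 (standard error 0.69, n = 3 per group) had an adjusted p of 0.136 from limma. The value depended on the mouse left out, being -2.83 without mutant 1 (limma adjusted p = 0.00938), -1.41 without mutant 2 (limma adjusted p = 0.295) and -1.57 without mutant 3 (limma adjusted p = 0.319). The third probe set of Dpyd, below the lower quartile of every array, differed by 0.82 (limma adjusted p = 0.241).

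Dpys, the dihydropyrimidinase, has 3 probe sets, and they fell, rose and did neither. On 1436291_a_at the mutants read 9.39, 7.56 and 7.44 and the controls 10.70, 11.15 and 11.21. All mutants stood below all controls, mutants 2 and 3 by the most. This was a fall to 13.5% of the control level (difference -2.89, standard error 0.50, n = 3 per group, limma adjusted p = 0.0438). On 1425689_at the values were 6.96, 7.12 and 7.03 in mutants and 5.24, 5.76 and 5.47 in controls. Here all mutants stood above all controls, with little spread among them, a rise of 1.55 (standard error 0.21, n = 3 per group, limma adjusted p = 0.0326), or 2.92-fold. The controls on this probe set lay above the lower quartile of their arrays (5.03 to 5.25), but not far above it. On 1425688_a_at, annotated to the same cDNA as 1425689_at, the groups overlapped at 8.79, 9.33 and 8.53 in mutants and 9.23, 9.14 and 8.58 in controls (difference -0.10, 0.05 after quantile normalization). Of 9010 genes with more than 1 probe set, 5 (0.0555%) had calls in both directions, Dpys among them. Averaged over its 3 probe sets, Dpys differed by -0.48 (limma adjusted p = 0.197). Of the fits that left out 1 mouse, the one without mutant 1 alone kept both calls, and the other 5 kept neither (limma adjusted p up to 0.179 for the fall and 0.154 for the rise), and those 5 called 0 to 3 of all probe sets. The fall had an adjusted p of 0.0537 from limma when every array was centred on its median.

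Upb1, the next enzyme after Dpys, was slightly lower and hardly varied within a group. It read 11.02, 10.95 and 10.95 in mutants and 11.31, 11.21 and 11.43 in controls, without overlap. The difference of -0.34 (standard error 0.18, n = 3 per group) did not pass (limma adjusted p = 0.282). Agxt2 went the other way. Its values were 11.13, 11.82 and 11.98 in mutants and 10.76, 10.14 and 10.33 in controls. Mutant 1 was the nearest to the controls and still above them. The difference of 1.23 (standard error 0.29, n = 3 per group), at 2.35-fold, had an adjusted p of 0.0633 from limma. It passed with 1 probe set per gene (limma adjusted p = 0.0403), with age as a covariate (limma adjusted p = 0.0487), among the brighter probe sets (limma adjusted p = 0.0373) and without mutant 1 (1.49, limma adjusted p = 0.022). It did not pass with centring (limma adjusted p = 0.0929), quantile normalization (limma adjusted p = 0.0808) or any of the other 5 mice left out (limma adjusted p = 0.114 to 0.218), nor under the remaining alternatives. Upb1 and Agxt2 have 1 probe set each, so no other reading of them was at hand.

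**Figure D2:**
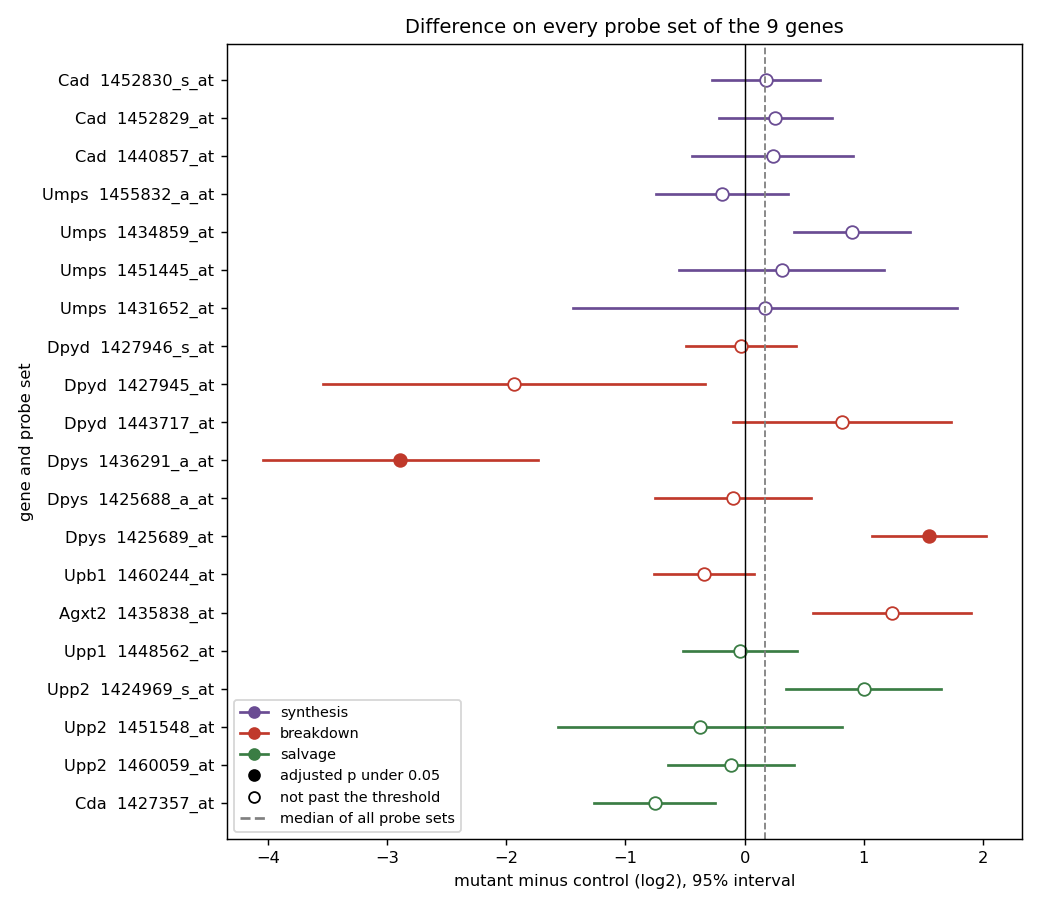
Difference of mutants minus controls on the log2 scale (horizontal axis) for each probe set (vertical axis), with its 95% interval from limma and a dashed line at the median of all probe sets, 0.17. Filled points, at an adjusted p under 0.05, are found on Dpys alone, at -2.89 and 1.55.

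Among the salvage genes, Upp2, the uridine phosphorylase typical of liver, was higher on its brightest probe set. On 1424969_s_at it read 11.11, 10.62 and 10.94 in mutants and 9.83, 10.39 and 9.45 in controls. Each mutant stood above each control, mutant 2 and control 2 being the closest. The difference of 1.00 (standard error 0.28, n = 3 per group), at 199.8% of the control level, did not pass (limma adjusted p = 0.0864). On its other probe sets the groups overlapped, with 8.56, 6.55 and 7.91 in mutants and 8.0, 8.62 and 7.51 in controls on 1451548_at (difference -0.37, limma adjusted p = 0.697) and a difference of -0.11 on 1460059_at. The first of these is annotated to the same cDNA as the brightest.

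RefSeq (GRCm38.p6) gives Upp2 2 transcription starts 187850 bases apart, and the 250 bases before each are printed because its 3 probe sets disagree, and the start of the transcripts that each one reads was not checked. Capitals mark GGGCGG, the GC box read by Sp1, and TATAAA, the TATA box, searched on both strands.
Upp2 upstream start, chr2:58567084-58567333, plus strand: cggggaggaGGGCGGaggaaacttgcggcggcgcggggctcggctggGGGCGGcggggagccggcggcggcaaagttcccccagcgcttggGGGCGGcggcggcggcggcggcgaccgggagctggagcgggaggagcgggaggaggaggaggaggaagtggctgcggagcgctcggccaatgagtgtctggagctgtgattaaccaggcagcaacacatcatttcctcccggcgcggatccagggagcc
Upp2 downstream start, chr2:58754934-58755183, plus strand: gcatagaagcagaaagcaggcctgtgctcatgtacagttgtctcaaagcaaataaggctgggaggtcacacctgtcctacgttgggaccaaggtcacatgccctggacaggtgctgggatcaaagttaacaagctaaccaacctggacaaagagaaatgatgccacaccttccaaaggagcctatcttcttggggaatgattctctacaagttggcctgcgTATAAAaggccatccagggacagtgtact
The upstream window is 73.2% G and C and holds 3 matches to GGGCGG and none to TATAAA. The downstream window is 49.2% G and C and holds 1 match to TATAAA, opening 29 bases before the start, and none to GGGCGG. Over the 32851 windows of this length in the table, 12.4% hold TATAAA and 32.7% hold GGGCGG. A match is a string of letters and no measurement of a factor's binding.

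Upp1, the widely expressed uridine phosphorylase, overlapped between the groups, at 6.42, 5.92 and 6.12 in mutants and 6.28, 6.18 and 6.11 in controls. Its difference of -0.04 had a 95% interval of -0.52 to 0.44 (limma adjusted p = 0.932). Cda was lower, at 6.32, 6.69 and 6.40 in mutants and 7.03, 7.13 and 7.51 in controls. Every mutant stood below every control, at 59.2% of the control level, but the difference of -0.76 (standard error 0.22, n = 3 per group) missed the threshold over all probe sets (limma adjusted p = 0.0915).

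Whether probe sets of 1 gene changed unequally was compared within each array, as the brightest probe set minus each other one, over 11 such pairs in 5 genes. The groups did not overlap in 5 pairs, which belonged to Dpys, Upp2 and Umps, and over the whole table this was so for 31.3% of 16752 pairs. For Dpys 1436291_a_at minus 1425689_at the values were 2.43, 0.45 and 0.41 in mutants and 5.46, 5.39 and 5.74 in controls, a difference of -4.43. For Umps 1455832_a_at minus 1434859_at they were 0.09, -0.73 and -0.78 in mutants and 0.63, 0.22 and 1.01 in controls. Each of the 5 had p = 0.1 by exact two-sided permutation, the smallest that 20 splits of 6 mice allow, and 0.22 after Benjamini-Hochberg adjustment over the 11 pairs, so none could pass. For both pairs of Dpys, Umps 1455832_a_at minus 1434859_at and Dpyd 1427946_s_at minus 1427945_at, mutant 1 lay nearest to or among the controls, as it did for Upp2 1424969_s_at minus 1451548_at. For Upp2 1424969_s_at minus 1460059_at, at 5.21, 4.41 and 5.24 in mutants and 4.07, 4.28 and 3.19 in controls, mutant 2 lay nearest. For Dpyd 1427946_s_at minus 1443717_at, at 7.29, 8.56 and 8.42 in mutants and 8.54, 8.67 and 9.60 in controls, mutant 1 lay farthest. The remaining pairs, of Cad and Umps, overlapped between the groups. In the Gapdh 3′ minus 5′ signal given above mutant 1 lay nearest, and its part in these results was not tested.

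**Figure D3:**
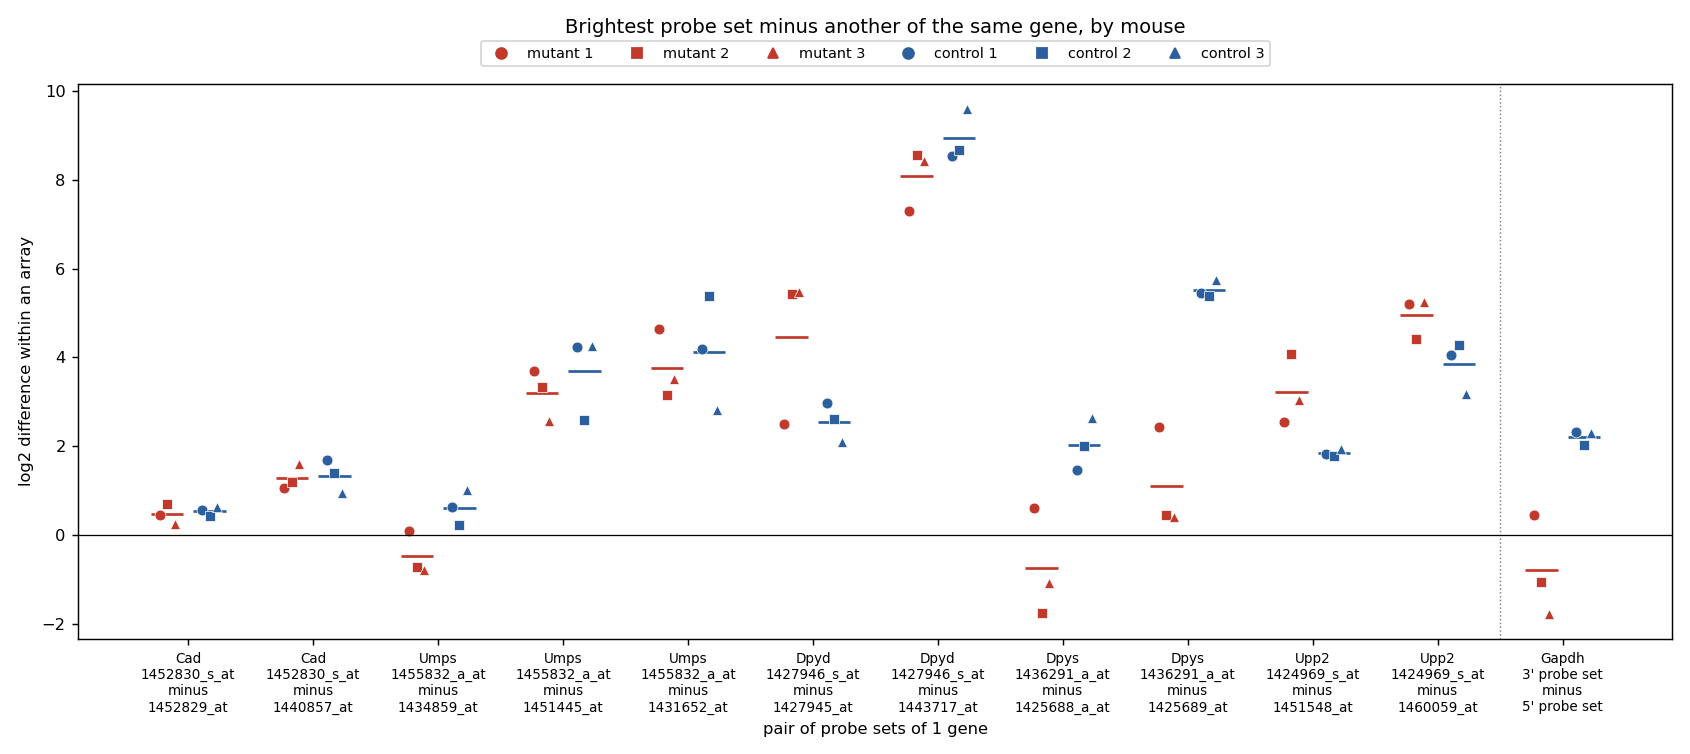
Log2 difference within each array (vertical axis) between the brightest and another probe set of a gene (horizontal axis) in mutants (red) and controls (blue), with a line at the group mean, for all 11 pairs and the 3′ and 5′ control probe sets of Gapdh. For Dpys 1436291_a_at minus 1425689_at the mutants sit at 0.41 to 2.43 and the controls at 5.39 to 5.74, and for Gapdh the ranges are -1.78 to 0.45 in mutants and 2.02 to 2.31 in controls.

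Of 41 other genes of pyrimidine metabolism, 36 were measured, by 85 probe sets. Of these 1 rose and 2 fell, a share of 3.53% beside 1.99% over all probe sets, with a median difference of 0.08. Without mutant 1 the counts were 3 and 12, beside 1289 and 2551 over all probe sets, and without any of the other 5 mice none of the 85 passed limma's adjusted threshold (24 to 31 at an unadjusted p under 0.05). Nt5c2, a cytosolic nucleotidase, rose on 1425933_a_at (7.20, 6.91 and 6.47 in mutants, 5.26, 5.56 and 5.70 in controls, difference 1.36, limma adjusted p = 0.047), with 0.01 to 0.91 on its other probe sets. Entpd5, which hydrolyses UDP in the endoplasmic reticulum, fell on 1417382_at (9.85, 9.75 and 9.59 in mutants, 10.58, 11.08 and 10.86 in controls, difference -1.11, limma adjusted p = 0.0482). It read -0.43 to -1.38 on 4 others and 0.19 on the last. Mthfd1, which makes the folate cofactors of thymidylate synthesis, fell on 1436704_x_at (5.91, 4.98 and 4.63 in mutants, 7.39, 7.29 and 6.98 in controls, difference -2.05, limma adjusted p = 0.0391). Its other probe sets read -0.98 and -0.77.

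Dhodh, the step that needs CoQ, overlapped between the groups. Its brighter probe set, 1417581_at, read 6.08, 6.32 and 6.28 in mutants and 5.79, 6.15 and 6.26 in controls (difference 0.16, limma adjusted p = 0.677), and the other differed by -0.18 (limma adjusted p = 0.607). Ctps, which makes CTP, differed by 0.23 (limma adjusted p = 0.536), and Tyms, the thymidylate synthase, by 0.16 to 0.66 on 4 probe sets, none past the threshold. Downstream of Upb1, the beta-alanine transaminase Abat differed by -1.06 on 1433855_at (8.70, 6.98 and 6.99 in mutants, 8.43, 8.34 and 9.07 in controls, limma adjusted p = 0.214), where mutant 1 lay among the controls as on Dpyd 1427945_at. The other probe set of Abat, 1422226_at, differed by 0.28 (limma adjusted p = 0.425), with overlap. Aldh6a1, which oxidizes the semialdehydes that follow, read 11.21, 10.96 and 10.76 in mutants and 11.54, 11.83 and 11.52 in controls (difference -0.65, limma adjusted p = 0.112). All mutants were below all controls on Aldh6a1.

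The pattern of Dpys 1425689_at, the member probe set of smallest p, was most like those of Gli3, Grip1 and Slc47a1, with Pearson's r of 0.998, 0.997 and 0.997 over the 6 arrays. They differed by 0.83, 0.60 and 0.86, none past the threshold. Because the points form a mutant and a control group, r is high for a gene that separates them in the same direction with little spread within each group. It was over 0.95 for 588 of 18193 genes.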

How the data were processed

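The authors normalized the probe-level data in dChip and summarized them with its perfect-match-only model, and the deposited log2 values, 1 per probe set and array, were used as given. They ran between 0.00 and 14.63, and 40 were exactly 0. No detection calls came with them, and the sources used here give neither the dChip version nor its baseline array. Precision is limited by there being 3 arrays a group. The methods name a C. elegans array, whereas the probe sets are those of a mouse array. Groups and replicate numbers follow the sample titles. Symbols came from GEO's platform annotation, in which 34958 probe sets had 1 symbol, 932 several and 9211 none.

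After 64 control probe sets were set aside, 45037 were tested in R 4.3.3 using limma 3.58.1 (lmFit, then eBayes). In simulated data of that size, with independent normal noise, 44837 probe sets were left unchanged, and the fit called 2 of them. It called 2.00% of probe sets changed by 1 and 53.0% of those changed by 2. In the real data 25.2% of probe sets had an unadjusted limma p under 0.05, which sets another adjusted cut-off. The simulated shares therefore do not give the sensitivity of this comparison. Single values were compared by exact two-sided permutation. Named genes were the members, Pdss2, Gapdh and Actb controls, other pathway genes with a call, a fixed set of key enzymes (Dhodh, Tyms, Ctps, Abat, Aldh6a1 and Tymp, the last with no matched probe set) and the 3 genes most like the member of smallest p. Actb 3′ minus 5′ overlapped between the groups (2.60 to 4.50 in mutants and 3.11 to 3.90 in controls). The members and lists were chosen with earlier results of these data known. The alternatives were quantile normalization, median centring, brighter probe sets, 1 probe set or the mean per gene, a replicate block, age as a covariate, the trend and robust options of eBayes, and leaving out each mouse. A block for mutant 3 and control 1, called concurrent in the labels, was added after seeing the data. Promoter windows were read from RefSeq, where 8 of the 9 members matched. Figures were drawn with matplotlib 3.10.9.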

Additional observations from a re-analysis of the deposited data

How the results depend on the processing

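Of the 45037 probe sets, 897 were called. Some fits tested fewer, with 1643 of 18193 called for 1 probe set per gene and 502 of 18193 for the mean per gene. Among brighter probe sets 3088 of 23996 were called. Out of all 45037, the count was 2515 with age, 1413 with the trend and robust options, 300 with median centring and 351 with the concurrent pair as a block. It was 0 with the replicate block (7935 at an unadjusted p under 0.05). With a mouse left out it was 0 to 3840 (7526 to 12190 at an unadjusted p under 0.05), the highest without mutant 1. The member count was 2 of 20, and it was 1 with centring, 0 with the replicate block (7 at an unadjusted p under 0.05) and 0 to 5 with a mouse left out. The 5 came without mutant 1, beside 3840 of 45037 over all. Among brighter probe sets it was 4 of 15, beside 3088 of 23996. With the mean per gene it was 0 of 9 (2 at an unadjusted p under 0.05), and with 1 probe set per gene 2 of 9. The count of other pathway probe sets was 3 of 85, and it was 10 with age, 7 with trend and robust options and 1 with centring or the concurrent pair. It was 0 with the replicate block (28 at an unadjusted p under 0.05) and 0 to 15 with a mouse left out, the 15 also without mutant 1. Fits of fewer features gave 13 of 47 among brighter probe sets, 4 of 36 with 1 probe set per gene and 1 of 36 with the mean per gene. Under the replicate block Dpys had adjusted p values of 0.184 and 0.182 from limma. Same-numbered mice did not deviate together (r of deviations 0.06, -0.50 and -0.56), so the number gave no pairing. Over the other pairs of a mutant and a control, r ran from -0.45 (mutant 2 and control 1) to 0.62 (mutant 2 and control 3). It was 0.45 for mutant 3 and control 1 and 0.40 for mutant 3 and control 2. Deviations from a group mean cancel out within the group, so some r must be positive. These r therefore do not show whether deviations were shared across the groups. In the concurrent pair, mutant 3 minus control 1 was -3.26 on Dpys 1436291_a_at, 1.79 on 1425689_at and 1.22 for Agxt2.

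The synthesis median was 0.00 (-0.005) with 1 probe set per gene, 0.0717 with centring, 0.10 with quantile normalization and 0.10 to 0.32 with a mouse left out. The medians over all in these fits were 0.17, 0.01, 0.04 and 0.10 to 0.23. That of breakdown was -0.19 with 1 probe set per gene, -0.23 with centring, -0.36 with the mean per gene and -0.17 to 0.0019 with a mouse left out, and that of salvage was -0.26 to 0.0805 with a mouse left out. The mean over the probe sets of Umps (0.30) had the opposite sign to its brightest, 1455832_a_at, which that fit does not hold on its own. The sign turned for Dpys 1425688_a_at with quantile normalization (0.0546). With a mouse left out it turned for Cad 1440857_at (-0.014 to 0.45), Umps 1431652_at (-0.58 to 0.94), Dpyd 1427946_s_at (-0.17 to 0.0573), Dpys 1425688_a_at (-0.32 to 0.078), Upp1 (-0.17 to 0.0805), Upp2 1451548_at (-0.82 to 0.19) and Upp2 1460059_at (-0.26 to 0.0028). None of these had passed the test, and the cause was not tested.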
